A study of Mus musculus with 69 samples.

Results

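Gpx2 and 9 other genes of glutathione metabolism were followed across the mRNA-seq and ATAC-seq libraries of WT and H3.3K27R mutant mouse embryonic stem cells (ESCs). The genes were taken by name from a count table of 16263 genes, and all 10 passed the filter on low counts that left 14061 genes for testing. Gpx2 was chosen for its rise in the mutants, so its WT and mutant levels are given as a description with no test. The other 9 were listed to ask whether that rise is shared by the glutathione peroxidases Gpx1, Gpx3, Gpx4, Gpx7 and Gpx8, by the glutathione synthesis genes Gclc, Gclm and Gss, or by Gsr, which recycles glutathione. WT cells were the J1 line on a 129S4/SvJae background, derived from the inner cell mass of the blastocyst. The mutants were the clones H3.3K27R #18 (Mut18) and H3.3K27R #43 (Mut43), made by gene editing in J1 cells so that H3f3a and H3f3b, the genes for the histone variant H3.3, encode arginine in place of the lysine that carries H3K27ac. Each clone is a single edited line. An effect of the mutation and a trait of a clone are therefore separated only as far as the clones agree. Agreement does not separate the mutation from a trait that both clones share and WT lacks. The paper edited the genes in sequence, and whether the clones had a common edited parent or culture history was not tested. Each line had 2 mRNA-seq libraries and 2 ATAC-seq libraries, described as biological replicates, and the p-values measure the spread between such libraries.

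Glutathione, a tripeptide of glutamate, cysteine and glycine, is the main small thiol of the cell. Glutamate-cysteine ligase, made of the catalytic subunit Gclc and the modifier subunit Gclm, carries out the first and limiting step of its synthesis, and glutathione synthetase (Gss) adds the glycine. Most glutathione peroxidases use glutathione to reduce peroxides, and glutathione reductase (Gsr) returns the oxidized form at the expense of NADPH. Gpx2 is the selenium-dependent peroxidase best known from the epithelium of the gut, and is described as a target of NRF2 and of Wnt signalling.

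The mRNA-seq libraries held 14992756 to 15143998 counts each, so depth was nearly equal. The labelled cell type was checked against marker lists. All 10 stem cell markers listed were tested, with summed levels of 3814 to 3967 CPM (counts scaled to library size) in WT and 4238 to 4475 CPM in the mutants. Of these, 6 rose and 2 fell (Pou5f1 by 0.27 and Utf1 by 0.19 on the log2 scale, edgeR), and Zfp42 alone went from 7932 to 13054 normalized counts. Over all genes tested, 23.5% rose and 24.5% fell (edgeR, adjusted p under 0.05). Of 12 feeder fibroblast markers, 11 were tested, 8 fell and 1 rose. The summed level of all 12 was 1286 to 1404 CPM in WT and 1117 to 1222 CPM in the mutants. WT replicate 1 stood apart in several of these markers, with 843 normalized counts of Col3a1 against 257 in WT replicate 2, and 428 against 57.8 of Col6a1. Without that library 5 of the 11 fell and none rose, at a median log2 fold change of -0.34 in place of -0.59. The cells had been grown on feeders before feeder-free passages, and fewer cells of a type and less RNA per cell cannot be told apart in these bulk libraries.

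Gpx2 was low in WT ESCs and several-fold higher in every mutant library. Its counts were 58 and 58 in the WT libraries, 345 and 314 in those of Mut18 and 375 and 391 in those of Mut43. After normalization these became 56.6 and 56.8 in the WT libraries, 345 and 318 in those of Mut18 and 382 and 397 in those of Mut43. The WT libraries were nearly equal, every mutant library lay far above both, and the 4 mutant libraries differed little among themselves. The WT mean was 56.7 ± 0.154 normalized counts (SD, n = 2) and the mutant mean 360.4 ± 35.7 (SD, n = 4), a 6.34-fold difference or 2.66 on the log2 scale. Of the 14061 genes tested, 17 had a larger log2 fold change. The markers of gut and endoderm epithelium moved in both directions. Of 16 listed, 8 were tested, of which 3 rose and 2 fell (edgeR). Beyond 2-fold 2 rose and 1 fell, where 3.28% of all genes tested rose and 5.65% fell. The summed level of the 13 markers in the count table was 14.4 to 14.5 CPM in WT and 11.8 to 15.3 CPM in the mutants.

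**Figure D1:**
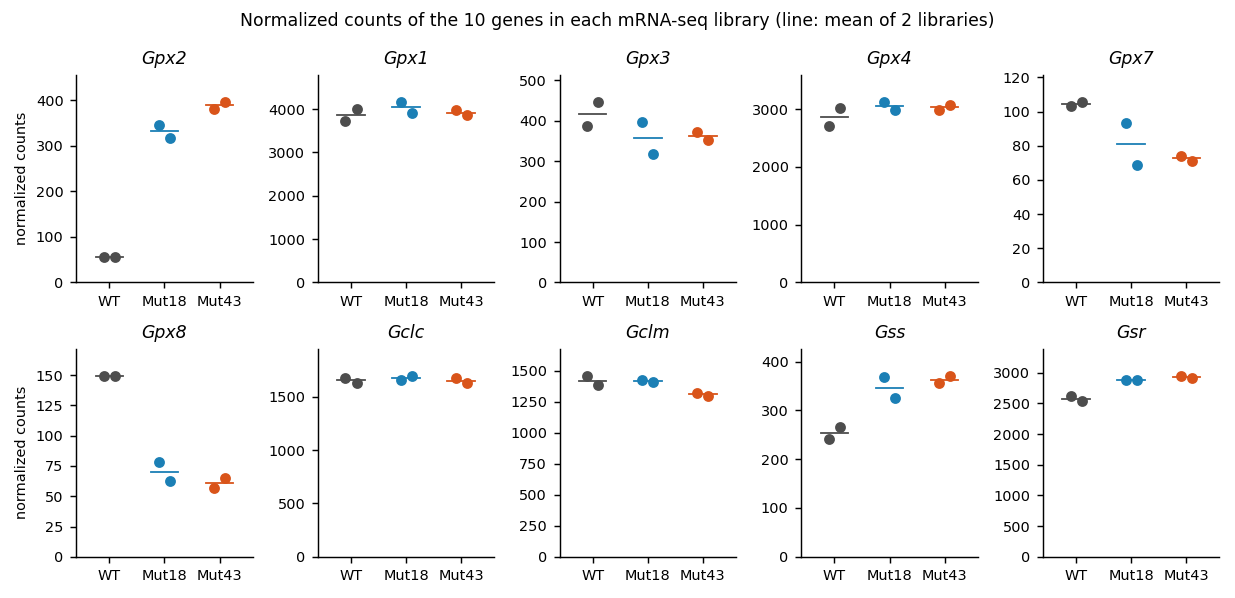
Normalized counts (vertical axes, each from 0) of the 10 genes in the 2 libraries each of WT, Mut18 and Mut43; points are libraries and lines are means of 2. Gpx2 stands at 56.6 and 56.8 in WT and at 318 to 397 in the mutants, Gpx8 shows the opposite order, and Gclc is level.

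Gpx2 lies on chr12:76792333-76795554 (GRCm38), minus strand, and the whole gene sits inside Fntb on the opposite strand. Fntb, which encodes a farnesyltransferase subunit, rose by 0.16 ± 0.06 on the log2 scale (SE, edgeR adjusted p = 0.0345), from 794 to 887 normalized counts. Whether the counting used strand is not given in the sources used here, so reads of this stretch could be assigned to either gene. The other neighbours did not follow Gpx2. Towards lower coordinates, Churc1 differed by 0.20 (edgeR adjusted p = 0.124) and Sptb, an erythroid-type spectrin gene 81786 bp away, fell by 1.33 on the log2 scale (adjusted p = 7.38e-07). On the other side, Rab15, 2406 bp away, differed by -0.20 (edgeR adjusted p = 0.182), Max by 0.06 (adjusted p = 0.289), and Fut8 fell by 0.25 (adjusted p = 0.0142).

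The stretch before the Gpx2 transcription start site (TSS) is shown because a merged ATAC-seq region, described with the accessibility data, covers the start of the gene. Its part upstream of the TSS comes from the peak of 1 library, Mut43 replicate 1. The 250 bases upstream of the TSS were taken from RefSeq (GRCm38.p6, chr12:76795555-76795804, minus strand, 5′ to 3′), with the 41 bases inside that region in capitals.
Gpx2 upstream: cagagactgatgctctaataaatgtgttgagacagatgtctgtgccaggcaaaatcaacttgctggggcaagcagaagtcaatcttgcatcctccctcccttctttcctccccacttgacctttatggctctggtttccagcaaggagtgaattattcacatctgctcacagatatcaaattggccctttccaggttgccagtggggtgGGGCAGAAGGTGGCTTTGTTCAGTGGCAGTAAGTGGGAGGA

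Motifs were searched on both strands in windows of 250 bases before to 50 bases after each RefSeq start, namely the antioxidant response element core TGACNNNGC, bound by NRF2, and the TCF/LEF core CTTTGA, used by Wnt signalling. Promoters were listed for 8 of the 10 genes, all but Gclc and Gsr. The Gpx2 promoter window held neither motif. Among the 11 promoters of the 8 genes, the antioxidant core was found once, in Gclm, and the TCF/LEF core once, in Gss. The shares were 12.4% and 16.0% of 32851 mouse promoters, and 14.3% and 11.8% of the 13495 promoters of genes tested. Both matches lie upstream of the start, Gclm at chr3:122245413-122245442 (plus strand, match on the reverse strand) and Gss at chr2:155593000-155593029 (minus strand), shown with the match in capitals.
Gclm upstream: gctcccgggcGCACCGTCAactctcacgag
Gss upstream: gctctcttctgcCTTTGAgtgtccccatct

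The ATAC-seq region at Gpx2 reaches further into the gene than the promoter window, from 41 bases before to 163 bases after the TSS, and there both cores were present on the reverse strand. They stand next to each other in the 5′ leader at chr12:76795483-76795509 (minus strand), with both matches in capitals.
Gpx2 leader: GCTAAGTCAtcccgggaatgcTCAAAG
In the same window around the outermost TSS of 13938 tested genes, the antioxidant core occurred in 10.2% and the TCF/LEF core in 6.05%. Among the 10 genes, Gclm and Gsr also held the antioxidant core there, and Gpx2 alone the TCF/LEF core. This window was cut to the peaks of Gpx2 itself, so the matches at Gpx2 and the shares beside them are a description and not a test. A match of letters is no evidence of binding.

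Of the 5 other peroxidases among the 10 genes none rose with Gpx2, 3 fell and 2 were not called. Over all genes tested, 23.5% were called higher and 24.5% lower in the mutants (edgeR's quasi-likelihood test, adjusted p under 0.05), so such calls are common in these data. Beyond a 2-fold change the shares were 3.28% higher and 5.65% lower.

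Gpx8, a peroxidase of the endoplasmic reticulum, went the opposite way to Gpx2. It had 149 and 149 normalized counts in the WT libraries, 78.1 and 62.7 in those of Mut18 and 56.99 and 64.9 in those of Mut43, so that every mutant library lay below both WT libraries. It fell by 1.18 ± 0.14 on the log2 scale (SE, edgeR adjusted p = 5.82e-07), a 2.27-fold lower level, and was the one gene of the 9 called beyond 2-fold. Gpx8 overlaps Cdc20b on the opposite strand. Gpx7, its close relative in the same compartment, had 103 and 106 normalized counts in the WT libraries, 93.1 and 68.8 in those of Mut18 and 74.3 and 71.0 in those of Mut43. It fell by 0.45 ± 0.15 on the log2 scale (edgeR adjusted p = 0.0189), again with the groups apart, but DESeq2 did not call it (adjusted p = 0.0737). It was not called either when WT replicate 1 (adjusted p = 0.0582), WT replicate 2 (0.0779) or Mut18 replicate 2 (0.0512) was left out in edgeR.

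Gpx3, the secreted plasma peroxidase, had 388 and 447 normalized counts in the WT libraries, 395 and 318 in those of Mut18 and 372 and 351 in those of Mut43. The groups overlapped, since the first Mut18 library lay above the lower WT library. Its fall by 0.22 ± 0.09 on the log2 scale stood at the threshold (edgeR adjusted p = 0.0458) and was lost in DESeq2 (adjusted p = 0.111) and when WT replicate 2 (edgeR adjusted p = 0.467), Mut18 replicate 2 (0.129), Mut43 replicate 1 (0.0535) or Mut43 replicate 2 (0.0845) was left out. The gene is one of 1182 tested on chromosome 11, whose median log2 fold change was 0.39, and with normalization factors from the other chromosomes it was not called (edgeR adjusted p = 0.0760). Feeder fibroblast markers fell in the same comparison, but not evenly. Col3a1, a fibrillar collagen gene, fell by 2.16 on the log2 scale, and by 1.06 without WT replicate 1, while Fn1 rose by 0.09 and Thy1 was not called (0.02, edgeR adjusted p = 0.939). With WT replicate 1 left out the log2 fold change was -0.31 for Gpx3, -1.18 for Gpx8 and -0.46 for Gpx7. The part of such cells in the falls of Gpx3, Gpx8 and Gpx7 was not tested.

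Gpx1 and Gpx4 are the abundant members. Gpx1, the general peroxidase of the cytosol, had 3733 and 4008 normalized counts in the WT libraries, 4173 and 3913 in those of Mut18 and 3981 and 3855 in those of Mut43. Its log2 fold change was 0.04, with a 95% confidence interval of -0.05 to 0.13 (edgeR adjusted p = 0.461), and the groups overlapped. Gpx4, which reduces lipid peroxides in membranes, had 2703 and 3022 normalized counts in the WT libraries, 3129.9 and 2989.9 in those of Mut18 and 2991 and 3079.8 in those of Mut43. The log2 fold change of Gpx4 was 0.09 (edgeR adjusted p = 0.110), again with overlapping groups, and it passed the threshold with factors from outside chromosome 11 (0.12, adjusted p = 0.0417) and without WT replicate 2 (0.18, adjusted p = 0.0116). For both genes the upper confidence limit lies far below the change of Gpx2.

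Of the synthesis genes, the subunits of the limiting enzyme did not move with Gpx2, whereas Gss rose modestly. Gclc had 1677 and 1633 normalized counts in the WT libraries, 1653 and 1694 in those of Mut18 and 1671 and 1625 in those of Mut43. The log2 fold change of Gclc was 0.00, with an interval of -0.08 to 0.09 (edgeR adjusted p = 0.936), and the libraries were interleaved. Gclm had 1459 and 1382 normalized counts in the WT libraries, 1429.8 and 1412 in those of Mut18 and 1324 and 1298 in those of Mut43. Both Mut18 libraries of Gclm lay between the WT libraries and both Mut43 libraries below them, and the log2 fold change was -0.06, with an interval of -0.16 to 0.05 (edgeR adjusted p = 0.362).

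Gss had 242 and 266 normalized counts in the WT libraries, 367 and 325 in those of Mut18 and 355 and 370.4 in those of Mut43. Every mutant library of Gss lay above both WT libraries, and the gene rose by 0.48 ± 0.08 on the log2 scale (SE, edgeR adjusted p = 7.69e-05), or 1.396-fold. Gss overlaps Acss2 on the opposite strand. Gsr had 2618 and 2536 normalized counts in the WT libraries, 2882 and 2881 in those of Mut18 and 2949 and 2922 in those of Mut43. It rose by 0.17 ± 0.04 on the log2 scale (edgeR adjusted p = 0.00114), or 1.13-fold, with the groups apart and the mutant libraries close together.

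Of the 9 genes other than Gpx2, 2 rose (Gss and Gsr), 3 fell (Gpx8, Gpx7 and Gpx3) and 4 were not called, with a median log2 fold change of 0.005 (all genes tested, -0.004). All 4 mutant libraries lay above both WT libraries for 2 of the 9 and below them for 2, against 29.4% and 30.4% of all genes tested. These shares are close to the background, and no gene of the 9 rose beyond 2-fold.

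**Figure D2:**
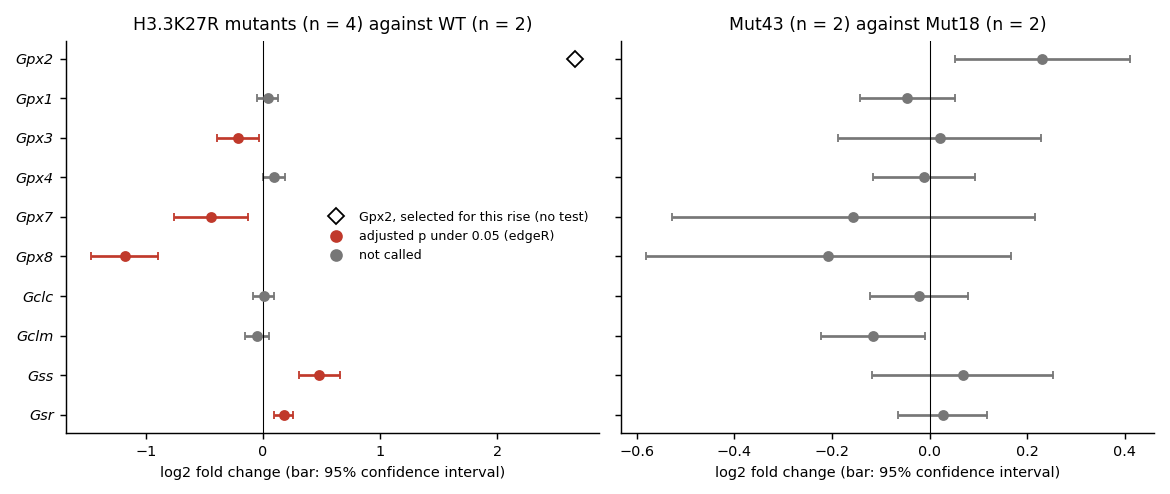
Log2 fold changes (horizontal axes) of the 10 genes, mutants against WT on the left and Mut43 against Mut18 on the right; bars are 95% confidence intervals and filled red points have an edgeR adjusted p under 0.05. The open diamond is Gpx2 at 2.66, plotted with no interval because it was selected on this difference; Gss and Gsr lie above 0, Gpx8, Gpx7 and Gpx3 below, and on the right no gene is called.

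The same genes were called in each clone, apart from the weaker falls. Mut18 against WT gave Gss and Gsr higher and Gpx8 lower, 3 of 9 genes where 41.3% of all genes were called in either direction. Mut43 against WT gave Gss and Gsr higher and Gpx8 and Gpx7 lower, 4 of 9 genes where 46.8% of all genes were called. Both comparisons share the WT libraries. In Mut18 and Mut43 the log2 fold change of Gss was 0.45 and 0.51, that of Gsr 0.16 and 0.19, and that of Gpx8 -1.08 and -1.29.

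The clones were then compared with each other, which does not use the difference that chose Gpx2. None of the 10 genes differed between Mut43 and Mut18 after adjustment in edgeR, nor in DESeq2, where 0.327% of all genes did so in edgeR. At an unadjusted edgeR p under 0.05 there were 2 of 10, Gpx2 and Gclm. Gpx2 was higher in Mut43 by 0.23 ± 0.09 on the log2 scale (interval 0.05 to 0.41, adjusted p = 0.400 by edgeR's quasi-likelihood test across all genes), and both Mut43 libraries lay above both Mut18 libraries. Gclm was lower in Mut43 by 0.12 ± 0.05, with an adjusted p of 0.531 in the same edgeR fit. The intervals were widest for the rare Gpx7 (-0.53 to 0.22) and Gpx8 (-0.58 to 0.17), so a modest difference between the clones was not excluded by these counts.

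Per length, Gpx2 moved from the lowest of the 10 genes in WT to the middle of the order in the mutants. Levels were expressed as CPM per kb of the principal coding transcript. In WT the order was Gpx1 at 239.7 ± 12.05 (SD, n = 2), Gpx4 at 198 ± 15.6, Gsr at 64.0 ± 1.44, Gclc at 32.1 ± 0.611, Gpx3 at 17.4 ± 1.75, Gclm at 16.9 ± 0.645, Gpx8 at 9.51 ± 0.018, Gss at 8.59 ± 0.561, Gpx7 at 5.39 ± 0.086 and Gpx2 at 3.53 ± 0.010. Gpx3 and Gclm overlapped in WT, and the other neighbours in the order had libraries that did not overlap. In the mutants Gpx2 stood at 22.4 ± 2.22 CPM per kb (SD, n = 4), between Gclc at 32.2 ± 0.570 and Gclm at 16.2 ± 0.770. Gpx8 at 4.19 ± 0.569 and Gpx7 at 3.96 ± 0.572 came last there and overlapped. Gpx1, at 247 ± 8.57 CPM per kb in the mutants, stayed far above Gpx2. The union of all annotated Gpx2 exons holds 3222 bases, with a retained intron, against 1067 in the principal transcript. Over that union the level of Gpx2 was 1.17 CPM per kb in WT and 7.43 in the mutants. By union length Gpx2 stood below Gclm (14.4) and Gpx3 (13.2) in the mutants, so its place there depends on the length used.

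**Figure D3:**
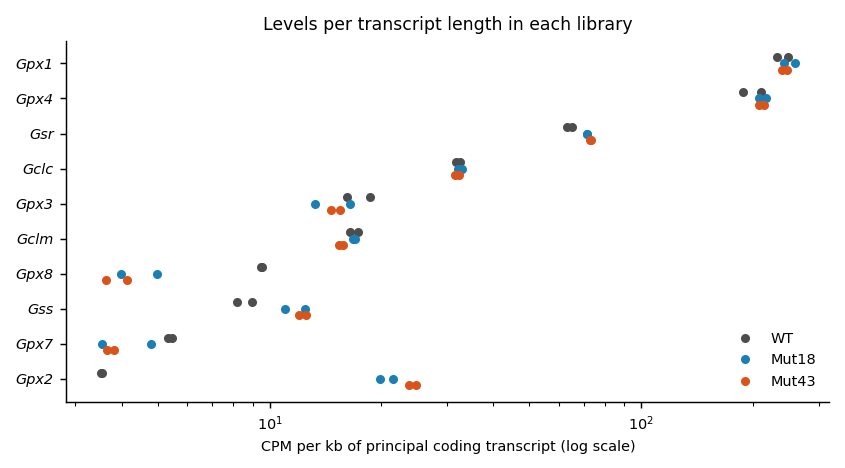
Levels in CPM per kb of principal coding transcript (horizontal axis, log scale) of the 10 genes in each library, ordered by the WT mean. Gpx2 has the lowest WT level, 3.53, and mutant libraries from 19.8 to 24.7, while Gpx1, Gpx4, Gsr and Gclc keep the 4 highest places in all lines.

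Other genes of glutathione and redox metabolism were taken from lists of 116 genes, of which 98 were tested. Of the 98, 31 rose, 22 fell and 45 were not called (edgeR), where 23.5% of all genes tested rose and 24.5% fell. The same shares are the background for each list below. The median log2 fold change of the 98 was 0.04. Beyond 2-fold 1 gene rose, Chac1, and 3 fell, Mgst1, Selenop and Dio3. Without WT replicate 1, an alternative added after the values had been seen, the log2 fold changes of Chac1 (0.89) and Selenop (-0.83) were still called by edgeR but lay under 2-fold, and those of Mgst1 (-1.27) and Dio3 (-1.20) stayed beyond it. The remaining peroxidase tested, Gpx6, was rare, with 8.79 and 20.6 normalized counts in the WT libraries, 22.03 and 25.3 in those of Mut18 and 37.7 and 32.5 in those of Mut43. The rise of Gpx6, 0.99 ± 0.33 on the log2 scale (edgeR adjusted p = 0.0180), stayed just under 2-fold and rests on few reads. Gpx5 was not analysed here.

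The list with the most risers was the supply of glutathione precursors and its turnover, of which 10 of 18 tested genes rose and 2 fell, with a median of 0.32. Chac1, which breaks down glutathione, had 54.7 and 76.4 normalized counts in the WT libraries, 99.1 and 134 in those of Mut18 and 159 and 177 in those of Mut43. It rose by 1.11 ± 0.20 on the log2 scale (edgeR adjusted p = 8.69e-05), with the mutant libraries all above the WT libraries. Cbs, which diverts homocysteine towards cysteine, rose by 0.86, and Slc1a4 and Slc7a5, carriers of neutral amino acids, rose by 0.84 and 0.44. Slc7a11, the cystine carrier, was not called (-0.22, edgeR adjusted p = 0.278), and Cth, the next enzyme after Cbs, fell by 0.19. Slc1a4 and the mitochondrial glutathione carrier Slc25a39 (0.56) lie on chromosome 11, with its raised median.

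Glutathione S-transferases, which conjugate glutathione to other compounds, were split, with 6 of 21 tested genes higher, 6 lower and a median of -0.00. Mgst1, a microsomal member, had 106 and 55.9 normalized counts in the WT libraries, 26.0 and 23.3 in those of Mut18 and 23.4 and 19.3 in those of Mut43, and fell by 1.81 ± 0.24 on the log2 scale (edgeR adjusted p = 2.77e-06). The WT libraries of Mgst1 differed widely from each other, but both lay above those of the mutants. The risers were Gstm6 (0.93), Gstp2 (0.91), Gstm3 (0.82), Gstp1 (0.63), Gstm2 (0.56) and Gstm1 (0.21). Within the Gstp and Gstm families the genes are close copies, so the division of reads among them is uncertain.

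Of 24 tested genes of the NRF2 pathway, 8 rose and 5 fell, with a median of 0.01. Nqo1 and Hmox1, common reporters of the pathway, rose by 0.66 ± 0.07 and 0.64 ± 0.05 on the log2 scale (edgeR adjusted p = 5.56e-08 and 6.76e-10). Nfe2l2, which encodes NRF2 itself, and its inhibitor Keap1 were not called (-0.02, edgeR adjusted p = 0.751, and -0.09, adjusted p = 0.378). Maff, a small partner of NRF2, showed the largest change of the list, a fall by 0.71 ± 0.12, whereas its relative Mafg rose by 0.36. Mafg and another riser of the list, Sqstm1 (0.52), lie on chromosome 11, whose median log2 fold change was 0.39. Bach1, a repressor of NRF2 targets, fell by 0.41 on the log2 scale, and G6pdx, Txnrd1 and Txn1 fell by 0.31, 0.19 and 0.18.

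Of 20 tested genes of peroxiredoxins, thioredoxins, glutaredoxins, catalase and superoxide dismutases, 5 rose and 4 fell, with a median of -0.04. Txnip, the thioredoxin inhibitor, changed most among the called genes and rose by 0.56 ± 0.05 on the log2 scale (edgeR adjusted p = 1.76e-08). Prdx2, an abundant cytosolic peroxiredoxin, fell by 0.37, and Cat, the catalase gene, was not called (0.02, edgeR adjusted p = 0.703).

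Gpx2 needs selenocysteine, but the genes that make and insert it did not rise with it. Of 8 tested genes of selenoprotein synthesis none rose and 1 fell, Sephs1, by 0.15 ± 0.04 on the log2 scale (edgeR adjusted p = 0.00615). Of 16 other selenoprotein genes 2 rose and 7 fell, with a median of -0.11. Among the risers, Selenom (0.47, listed under the older symbol Selm) lies on chromosome 11, with its raised median. Selenop, the secreted selenium carrier, listed under the older symbol Sepp1, had 339 and 247 normalized counts in the WT libraries, 131 and 159.8 in those of Mut18 and 120.1 and 143 in those of Mut43. It fell by 1.08 ± 0.12 on the log2 scale (edgeR adjusted p = 3.39e-07). Dio3, a deiodinase gene with 20.5 normalized counts on average in WT and 8.86 in the mutants, fell by 1.20 ± 0.35 (edgeR adjusted p = 0.00653). The part of feeder fibroblasts, whose markers fell in the same libraries, in the falls of Mgst1 and Selenop was not tested, and WT replicate 1, where several of those markers were highest, also had more of both genes than WT replicate 2.

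**Figure D4:**
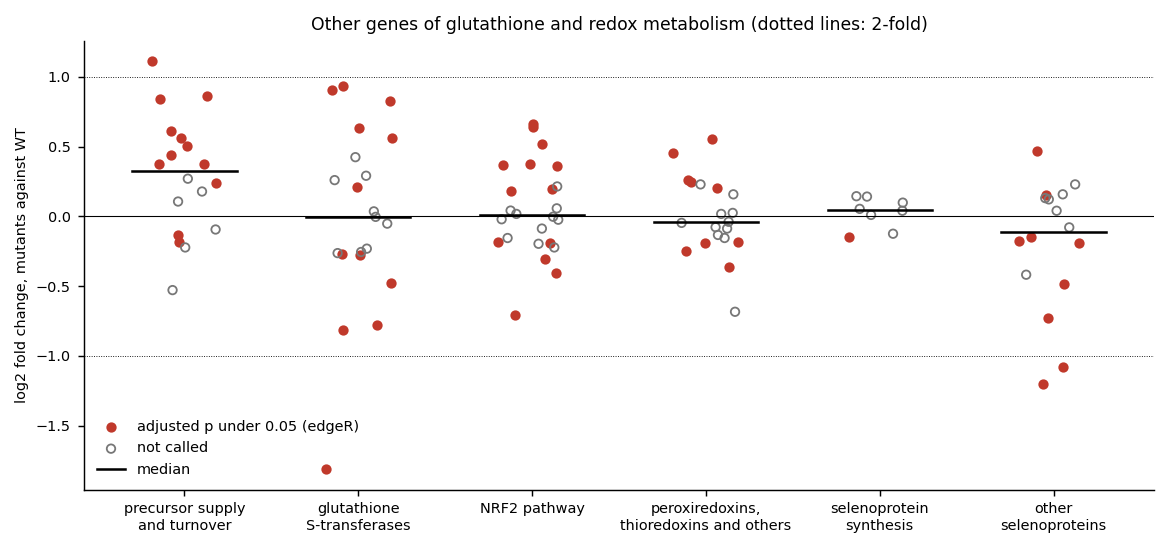
Log2 fold changes, mutants against WT (vertical axis), of the tested genes of 6 lists; filled red points have an edgeR adjusted p under 0.05, open points do not, black lines are medians and dotted lines mark 2-fold. The list of precursor supply and turnover has a median of 0.32, the others lie between -0.11 and 0.05, and Chac1 is the only point above the upper dotted line.

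The genes whose pattern over the 6 libraries was most like that of Gpx2 were named by a rule. Over 11075 genes that averaged at least 50 normalized counts, likeness was measured as the root mean square difference of log2 normalized counts after subtraction of the WT mean. Tex40 was nearest (0.102), followed by Lgals9 (0.196), Hormad2 (0.251), Zbp1 (0.342) and Myo1g (0.365). Their mean levels rose from 12.7 to 92.0 normalized counts for Tex40, from 69.9 to 385 for Lgals9 and from 22.01 to 118 for Hormad2. Lgals9, Hormad2 and Myo1g lie on chromosome 11, and Gpx2 does not. The ranking uses the rise that chose Gpx2, and Tex40, Hormad2, Zbp1 and Myo1g reached the mean of 50 only through the mutant libraries, so the values are a description and say nothing about glutathione metabolism.

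Peaks of ATAC-seq, called separately in each library, were compared at the annotated TSSs of the 10 genes (500 bp on either side). The lists held 63588 to 78536 peaks per library and give no read numbers. A peak was found in every library at 7 of the 10 genes, against 85.9% of 13938 tested genes with a placed TSS. These were Gpx1, Gpx3, Gpx4, Gpx7, Gpx8, Gclm and Gss. At Gpx8, whose mRNA fell, the deposited fold enrichment was 7.68 to 9.92 in the 6 libraries, and at Gss, whose mRNA rose, 8.96 to 10.3. The TSSs of both genes were thus listed as open in all lines.

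At the TSS of Gpx2, peaks were listed in mutant libraries alone. Neither WT library and 3 of the 4 mutant libraries had one, with a fold enrichment of 4.94 in Mut18 replicate 1, 5.23 in Mut43 replicate 1 and 5.13 in Mut43 replicate 2, and none in Mut18 replicate 2. The merged region, chr12:76795391-76795595, spans the TSS and most of the 5′ UTR in the first exon, and an intron of Fntb. Only the peak of Mut43 replicate 1 reaches the TSS itself. The peaks of Mut18 replicate 1 and Mut43 replicate 2 end inside the gene, at 76795544 and 76795534. These peaks were weak, with a -log10 q of 9.1, 12.2 and 10.1, and none was left at a minimum of 20. The difference did not pass a test (Fisher's exact test, two-sided, p = 0.4, where 2 against 4 libraries cannot give less than 0.0667). The pattern of no WT peak and at least 3 mutant peaks, set after the peaks of Gpx2 had been seen, held for 14 of the 13938 genes, or 0.100%. Among 451 genes with a placed TSS that rose beyond 2-fold it held for 8, or 1.77%. Gpx2, which set the pattern, is counted in the 14 and in the 8, so these shares are a description and not a test. No TSS peak in any library was found for 141 of the 451 (31.3%). The same share over all tested genes was not computed, but 85.9% of the 13938 had a TSS peak in every library.

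Around Gpx2 were 2 further regions. A region at chr12:76792651-76792848, almost wholly in the coding part of the last exon, had a peak in WT replicate 1 (fold enrichment 8.35) and in all 4 mutant libraries (5.50 to 7.61), but not in WT replicate 2. A region at chr12:76803832-76804309, in introns of Rab15 and Fntb and centred at -8516 bp, that is upstream, of the Gpx2 TSS, had a peak in all 6 libraries, with 7.52 and 8.70 in the WT libraries, 9.98 and 9.60 in those of Mut18 and 8.40 and 7.69 in those of Mut43. Accessible chromatin was thus listed near the gene in WT as well.

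At Gclc, weak peaks were listed in both WT libraries (3.84 and 3.77) and in Mut43 replicate 1 (3.70), while its mRNA was not called different. At Gsr both WT libraries and no mutant library had a peak within 500 bp of a TSS (Fisher's exact test, two-sided, p = 0.0667). That difference is one of edges, since the same region at chr8:33653381-33654310 had a peak in all 6 libraries, and with 1000 bp on either side Gsr had a TSS peak in each of them.

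**Figure D5:**
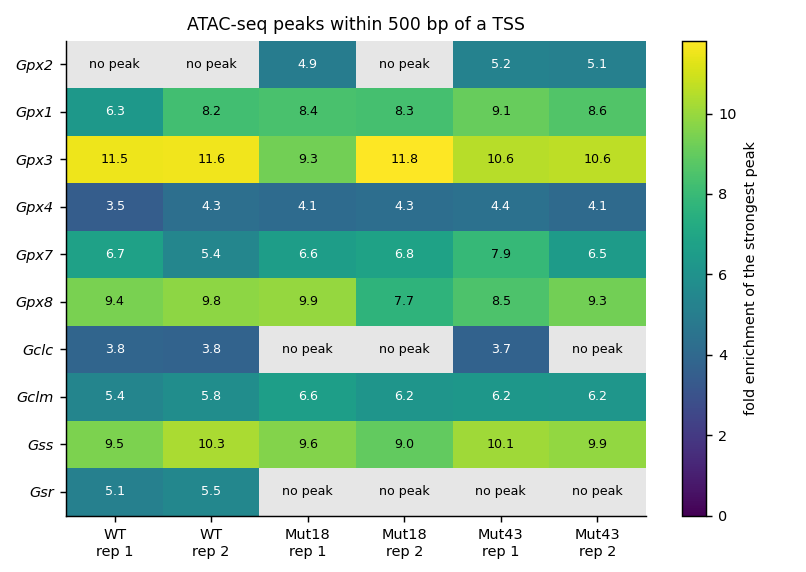
Deposited fold enrichment of the strongest ATAC-seq peak within 500 bp of a TSS of each of the 10 genes (rows) in each library (columns); grey cells had no peak. Gpx2 has no WT peak and 3 weak mutant peaks, Gclc has peaks in 3 libraries, and the mutant peaks of Gsr begin just beyond 500 bp.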

How the data were processed

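Whole-number read counts per gene from 6 mRNA-seq libraries were deposited by the authors without normalization, on the mouse build mm10 (GRCm38). The submitters' processing notes name STAR and DESeq2. The counter, annotation and strand setting are not given in the sources used here. For the 6 ATAC-seq libraries the authors deposited peaks with a fold enrichment and a -log10 p-value and -log10 q-value per peak. The notes name Bowtie2 2.3.4.2 and MACS2. ChIP-seq samples were not analysed here.

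Low genes were removed with filterByExpr (a count of 10 and a total of 15 at least), TMM factors were computed in edgeR 4.0.16 (R 4.3.3), and the 4 mutant libraries were compared with the 2 WT libraries by the quasi-likelihood F-test, with p-values adjusted by Benjamini-Hochberg over 14061 genes (threshold 0.05). A fit with 3 lines compared the clones. Normalized counts are counts divided by size factors around 1, and likeness to Gpx2 used a pseudocount of 1. The procedure was tested on simulated data for mutants against WT, where 81 of 88 genes at a log2 fold change of 1 and 107 of 112 at 1.5 were recovered among 14061, with 18 false calls. The simulated libraries had no difference between clones and far fewer changed genes than were called in the data. Recovery and false calls in the real data may therefore differ. Coordinates came from GENCODE (GRCm38) by symbol (15618) or older symbol (478), and 167 symbols had none. Peaks and exact tests were handled in Python 3.11.15 with pandas 2.3.3 and scipy 1.17.1. Named genes were all 10 members, list genes called beyond 2-fold or, in a list with none, the called gene that changed most, the 5 genes most like Gpx2 and the 3 tested genes on either side of it. Other genes of the lists were named after their values had been seen. The members, lists and tests were chosen with earlier results of these data known. Alternatives were DESeq2 1.42.0, other normalizations, filters, thresholds and windows, a replicate block, each clone alone and each replicate left out. Leaving out each WT library for the feeder markers and the list genes beyond 2-fold was added after the data had been seen.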

Additional observations from a re-analysis of the deposited data

How the results depend on the processing

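With 2 WT libraries, the WT level rests on few cultures, and the calls of Gpx7 and Gpx3 depend on which libraries are used. Of the 9 genes other than Gpx2, the number that rose was 2 and stayed at 2 or 3 in all alternatives but the 2-fold rule, which left 0. It was 3, Gpx4 included, with factors from outside chromosome 11 and without WT replicate 2. The number that fell was 3 and became 1, Gpx8, in DESeq2, with the 2-fold rule, in Mut18 alone, and without WT replicate 2 or Mut18 replicate 2. Leaving out each replicate in turn gave 2 to 3 risers and 1 to 3 falls. The list genes that rose numbered 31 and those that fell 22, against 1 and 3 with the 2-fold rule, and 30 to 33 and 18 to 23 with a replicate left out. The number of genes different between the clones was 0 throughout.

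Log2 fold changes near 0 changed sign. For Gclc it was -0.0028 with a minimum mean of 50 normalized counts, -0.0050 in Mut43 alone, and ranged from -0.0076 to 0.027 with a replicate left out. For Gclm it was 0.0055 in Mut18 alone, and for Gpx1 it ranged from -0.0068 to 0.0996 with a replicate left out. The median of all genes was -0.004, and 0.021 with factors from outside chromosome 11.

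Same-numbered replicates did not deviate together (correlations -0.012, 0.024 and 0.001 across 14061 genes), so the numbers pair no samples. With the replicate number as a block, 2 of the 9 genes rose and 3 fell, and 31 list genes rose and 21 fell. Genes with a TSS peak in every library numbered 7, 8 with 1000 bp, and 5 at a -log10 q of at least 20, where the number of mutant libraries with a Gpx2 peak fell from 3 to 0. The peak lists hold no read numbers, so depth limits there are unknown.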
